A study of Mus musculus with 9 samples.

Results

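The transcription factors and nuclear receptors that set the adult hepatocyte programme were followed through 10 genes, Hnf4a, Cebpa, Onecut1, Foxa3, Nr1i3, Nr1h4, Nr0b2, Ppara, Mlxipl and Srebf1. They were taken by symbol from a table of read counts for 24419 symbols, and all 10 were present in it. Liver RNA was sequenced from 9 male FVB mice on a normal diet, 3 libraries in each of 3 groups. MODEL1 livers carried NFE2L2 G31A with CTNNB1 T41A and came from mice of 18 weeks. MODEL2 livers carried NFE2L2 T80K with CTNNB1 T41A and came from mice of 19, 20 and 22 weeks. CTRL livers came from mice of 13, 13 and 17 weeks. NFE2L2 encodes NRF2, the activator of antioxidant genes, and CTNNB1 encodes beta-catenin, the effector of Wnt signalling. In both models plasmids with these cDNAs and a Sleeping Beauty transposase were forced into hepatocytes through the tail vein of mice aged 6 to 8 weeks, so that a mosaic of hepatocytes carries the inserts. Whether CTRL mice received any injection is not in the labels. The series' text describes a control with wild-type NFE2L2 and T41A beta-catenin at 14 weeks after injection, an age these CTRL mice had not reached. It also reports liver cancers in both models, but each sample is labelled only as liver, with no word on how much of it was tumour. No group is labelled as carrying a change in NFE2L2 or CTNNB1 alone, so the effects of the 2 genes cannot be told apart from each other, from injection or from age.

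As background, HNF4A (Hnf4a), CEBPA (Cebpa), HNF6 (Onecut1) and FOXA3 (Foxa3) bind together at the enhancers of liver genes and keep one another expressed. The nuclear receptors sense small molecules: CAR (Nr1i3) responds to drugs and other foreign compounds, FXR (Nr1h4) to bile acids, and PPARA (Ppara) to fatty acids during fasting. SHP (Nr0b2) is an orphan receptor without a DNA-binding domain that FXR induces and that represses bile acid synthesis, while ChREBP (Mlxipl) and SREBP1 (Srebf1) switch on sugar use and fat synthesis after feeding.

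Libraries were shallow, with 219504 to 325177 counts each, so that the 3 counts a library at 0 still allows correspond to 8.78 to 13.6 CPM (counts scaled to a common library size, corrected by the TMM method). Intervals of pooled count ratios and floors given below cover counting error only. They leave out the spread between mice, and they treat reads as independent although PCR copies are not independent molecules. A pooled interval that leaves out 1 is therefore not a call of a group difference. The liver label was checked on 10 hepatocyte markers, which were detected in every library but were a small part of it, with 400 to 606 counts in MODEL1, 479 to 719 in MODEL2 and 632 to 891 in CTRL, or 0.131% to 0.348% of a library. Their summed level ran from 1414 to 2398 CPM in MODEL1, from 1928 to 2571 in MODEL2 and from 2857 to 3353 in CTRL, and in whole liver fewer hepatocytes and less RNA per hepatocyte cannot be told apart. Alb, albumin, is among these markers and held 94 to 337 counts a library. Tomm40l, the gene opposite Nr1i3 described below, held 818 to 3834, more than Alb in every library. The strand setting of the counting is not given. Whether a gene's counts come from its own strand was not tested for any member or marker, so the marker levels above may not be those of marker mRNA alone. Markers of macrophages summed to 20 to 25 counts a library in MODEL1 (58.5 to 98.9 CPM), 8 to 11 in MODEL2 (28.6 to 44.3 CPM) and 7 to 12 in CTRL (26.3 to 49.7 CPM), with 1 of 8 at 0 in all libraries. Those of bile duct cells (0 to 4 counts, 3 of 7 genes at 0 throughout), stellate cells (0 to 7), lymphocytes (0 to 4) and neutrophils (0 to 1) were near absent. Of the endothelial markers 2 were tested and Eng, whose exons face Fpgs on the opposite strand, was lower in MODEL1 (-0.95 ± 0.28, edgeR adjusted p = 0.0163). The call of Eng was lost without CTRL replicate 2 (0.0561) or MODEL1 replicates 1 (0.0650) or 2 (0.0529), with raw library totals (0.0626) and when age entered the fit (0.140). It was also lost, at -1.10, without the Rn45s-rich libraries defined next. The 1 tested marker each of red cells and pancreas was not called. The ribosomal precursor Rn45s exceeded 8% of counts in MODEL1 replicates 1 and 3 and CTRL replicate 1, called the Rn45s-rich libraries below. Leaving them out leaves MODEL1 with replicate 2 alone, which is then assumed to vary like the others. No age is shared between groups, and age did not vary within MODEL1. A fit with age therefore separates group from age poorly, and the part of age in a lost call cannot be told.

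Of the 10 members 3 (Cebpa, Onecut1 and Nr1i3) passed edgeR's filter on low counts and were tested among 2639 genes. The other 7 did not, and are described by counts pooled over the libraries of a group. Calls below rest on edgeR's quasi-likelihood test with a Benjamini-Hochberg adjusted p under 0.05. In MODEL1 against CTRL 1 of the 3 tested members was called, and it was lower. Over all genes tested 22.8% were called, 11.9% higher and 11.0% lower. In MODEL2 against CTRL none of the 3 was called by edgeR or by DESeq2, and 0 had an unadjusted p under 0.05, where 13.3% of all genes were called, 8.30% higher and 4.96% lower. In MODEL2 against MODEL1 1 of 3 was called, and it was higher, with 7.28% of all genes called, 3.87% higher and 3.41% lower. A member that passes the filter through a group in which it is high is favoured to differ, so these counts do not stand for all 10.

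**Figure D1:**
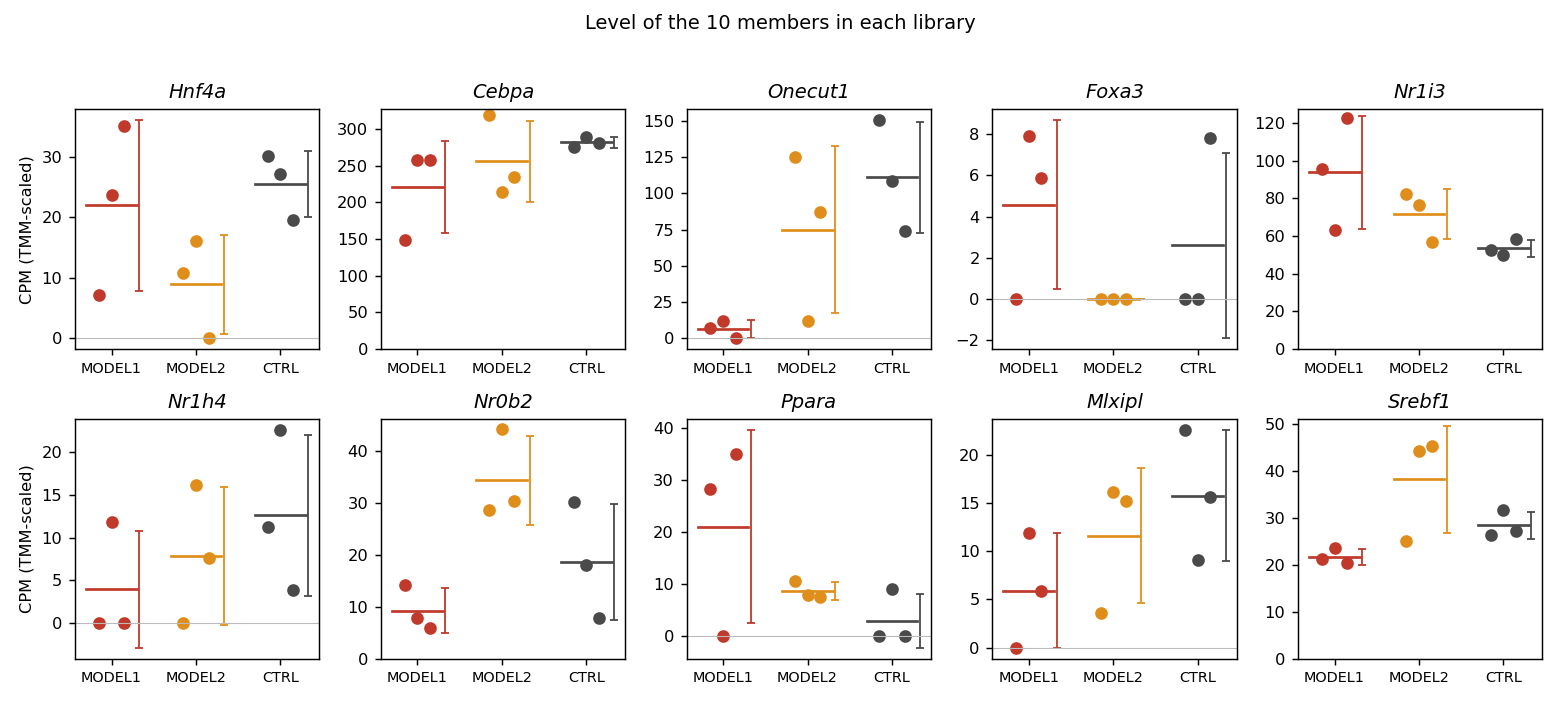
Level of each of the 10 genes in CPM (y axis, linear) in the 3 libraries of MODEL1, MODEL2 and CTRL; points are libraries in replicate order, the wide bar is the group mean and the whisker 1 SD. Onecut1 sits at 0 to 11.9 CPM in MODEL1, while MODEL2 replicate 2, at 12.1 CPM, lies far below the other MODEL2 libraries; Cebpa stays between 148 and 318 CPM in every library.

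The bases before the transcription start of the 3 tested members are shown because the results turn on these genes. They are the 250 bases upstream of the RefSeq start on GRCm38.p6, 5′ to 3′ on the + strand: chr9:74861671-74861920 for Onecut1, chr1:171213720-171213969 for Nr1i3 and chr7:35119043-35119292 for Cebpa. Capitals mark CACGTG, the palindromic E-box to which USF factors bind.
Onecut1: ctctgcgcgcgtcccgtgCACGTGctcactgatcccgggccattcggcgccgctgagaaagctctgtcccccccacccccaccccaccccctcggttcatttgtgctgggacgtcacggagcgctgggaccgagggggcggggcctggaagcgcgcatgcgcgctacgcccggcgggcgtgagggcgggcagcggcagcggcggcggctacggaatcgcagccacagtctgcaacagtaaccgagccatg
Nr1i3: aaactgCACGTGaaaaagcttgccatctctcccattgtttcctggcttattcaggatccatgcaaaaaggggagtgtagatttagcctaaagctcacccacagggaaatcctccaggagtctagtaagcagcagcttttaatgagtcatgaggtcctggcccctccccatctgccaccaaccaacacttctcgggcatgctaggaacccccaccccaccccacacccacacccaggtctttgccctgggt
Cebpa: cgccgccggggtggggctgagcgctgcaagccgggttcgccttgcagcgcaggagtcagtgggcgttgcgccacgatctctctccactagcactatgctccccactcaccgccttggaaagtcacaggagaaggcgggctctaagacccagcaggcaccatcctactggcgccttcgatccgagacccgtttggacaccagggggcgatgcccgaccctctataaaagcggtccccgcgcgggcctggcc
Onecut1 and Nr1i3 each hold 1 CACGTG, with its first base 232 and 244 bases before the start, and Cebpa holds none. The RefSeq table has 14 windows for the 10 members, since Hnf4a and Mlxipl have 2 each and Srebf1 has 3. Of these 14 windows 4 hold CACGTG, those of Onecut1, Nr1i3 and Nr0b2 and 1 of the 2 of Mlxipl, and of 32851 mouse promoter windows of the same length 6.02% hold it. Matches on either strand to ATCAAAG (TCF/LEF factors, the partners of beta-catenin), TGACNNNGC (the core of the antioxidant response element that NRF2 binds), CAAAGTCCA (HNF4A), TGTTTAC (FOXA) and TTGCNNAA (C/EBP) were found in none of the 14 windows, and in 3.21%, 10.2%, 0.384%, 3.17% and 9.56% of all windows in that order. The motifs were chosen after these sequences had been read, so the matches are descriptions and not binding sites.

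Onecut1 encodes HNF6, a factor of hepatocyte and bile duct development that stays on in adult hepatocytes, and was the member that differed most between groups (chromosome 9, 74861921 to 74891781 on mm10, no gene on the opposite strand within 5 kb). It held 2, 3 and 0 counts in MODEL1 replicates 1 to 3, 35, 3 and 23 in MODEL2 and 40, 24 and 19 in CTRL. As levels these were 7.07, 11.9 and 0 CPM in MODEL1, 125, 12.1 and 87.1 CPM in MODEL2 and 151, 109 and 74.2 CPM in CTRL. Every MODEL1 library was below every CTRL library. The MODEL2 group was split, with replicate 2 next to the MODEL1 libraries and replicates 1 and 3 within the CTRL range. In MODEL1 Onecut1 fell by 4.16 on the log2 scale (SE 0.77; edgeR adjusted p = 0.000334), a pooled ratio of 0.0510 with a 95% interval of 0.0161 to 0.124. The log2 fold change was -4.91 without MODEL1 replicate 2 and -3.50 without MODEL1 replicate 3, where the call was kept. In MODEL2 the log2 fold change against CTRL was -0.56 ± 0.55 (SE; adjusted p = 0.578), and the libraries overlapped. The pooled ratio of 0.689 (0.487 to 0.971) became 0.955 (0.671 to 1.35) without MODEL2 replicate 2 and 0.855 (0.569 to 1.29) without CTRL replicate 1.

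MODEL2 against MODEL1, Onecut1 was higher by 3.60 ± 0.79 log2 units (SE; edgeR adjusted p = 0.00717), a pooled ratio of 13.5 (5.49 to 43.1). The lowest MODEL2 library, at 12.1 CPM, stood just above the highest MODEL1 library, at 11.9 CPM. Both held 3 counts, so their order rests on the scaling. Without MODEL2 replicate 1 the difference was 3.03 with an adjusted p of 0.0547, and it was 4.34 without MODEL1 replicate 2 and 2.96 without MODEL1 replicate 3. Leaving out the Rn45s-rich libraries gave -2.95 (adjusted p = 0.0925) in MODEL1 against CTRL and 2.70 (0.198) in MODEL2 against MODEL1. The fall of Onecut1 in MODEL1 was larger than that of the summed hepatocyte markers given above, and the part of hepatocyte content in it was not tested.

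Cebpa encodes C/EBP-alpha, which keeps hepatocytes out of the cell cycle and drives genes of glucose and nitrogen metabolism (chromosome 7, 35119293 to 35121928). It held 42, 65 and 88 counts in MODEL1, 89, 53 and 62 in MODEL2 and 73, 64 and 72 in CTRL, or 221 ± 62.9, 255 ± 55.5 and 282 ± 7.34 CPM (SD, n = 3 each). The 3 MODEL1 libraries were below the 3 CTRL libraries, with replicates 2 and 3 at 257 and 258 CPM against a lowest CTRL value of 275 CPM, and the MODEL2 libraries spread on both sides of CTRL. MODEL1 differed from CTRL by -0.35 log2 units (95% interval -0.91 to 0.22; edgeR adjusted p = 0.405), MODEL2 from CTRL by -0.14 (-0.70 to 0.43; 0.796) and MODEL2 from MODEL1 by 0.21 (0.741). The pooled ratio of 0.790 (0.647 to 0.965) in MODEL1 was 0.915 (0.738 to 1.13) without MODEL1 replicate 1, and that of 1.16 (0.948 to 1.42) in MODEL2 against MODEL1 was 1.29 (1.02 to 1.64) without MODEL1 replicate 3 and 1.25 (above 1 at its lower bound) without MODEL2 replicate 2. Both intervals against CTRL include 0 and falls larger than the estimates. An exon of Gm45091 on the opposite strand shares 51 of the 2636 exon bases of Cebpa; Gm45091 is not among the symbols of the table.

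Hnf4a encodes HNF4-alpha, the factor on which much of the hepatocyte programme depends (chromosome 2, 163506808 to 163572910). It had 2, 6 and 12 counts in MODEL1, 3, 4 and 0 in MODEL2 and 8, 6 and 5 in CTRL. MODEL2 libraries lay below CTRL libraries, at 0 to 16.1 CPM against 19.5 to 30.1 CPM, while MODEL1 libraries spread from 7.07 to 35.1 CPM. Pooled over libraries, MODEL1 had 0.891 times the level of CTRL (0.452 to 1.77) and MODEL2 had 0.346 times (0.123 to 0.859). MODEL2 had 0.388 times the level of MODEL1 (0.139 to 0.954). Against CTRL the MODEL2 interval reached 1 without CTRL replicate 1 (0.383, 0.126 to 1.08) and without MODEL2 replicate 3 (0.518, 0.184 to 1.29), while the ratio was 0.216 without MODEL2 replicate 2. In MODEL1 it was 0.584 without MODEL1 replicate 3. In an edgeR fit with no filter on low counts Hnf4a had an unadjusted p of 0.0964 and an adjusted p of 0.717 in MODEL2 against CTRL. The antisense gene Hnf4aos spans part of Hnf4a without sharing an exon base, and had 2, 1 and 8 counts in MODEL1, 2, 2 and 2 in MODEL2 and 10, 3 and 3 in CTRL, a MODEL2 to CTRL ratio of 0.352 (0.113 to 0.946).

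Against MODEL1, the Hnf4a interval in MODEL2 reached 1 when MODEL1 replicate 2 (ratio 0.394, up to 1.04), MODEL1 replicate 3 (0.592, up to 1.87), MODEL2 replicate 1 (0.342, up to 1.02) or MODEL2 replicate 3 (0.581, up to 1.43) was left out, and the ratio was 0.242 without MODEL2 replicate 2. Foxa3, a forkhead factor that opens chromatin at liver enhancers (chromosome 7, 19013284 to 19023538), was at the limit of detection, with 0, 2 and 2 counts in MODEL1, 0, 0 and 0 in MODEL2 and 0, 0 and 2 in CTRL. The 0 counts of MODEL2 allow up to 3.79 CPM over its libraries together. Set at 3 counts over the group, MODEL2 would be 1.2-fold below MODEL1. The interval of the pooled MODEL2 to MODEL1 ratio, 0 to 1.68, includes 1, so these counts set no direction for Foxa3. Foxa3 in MODEL1 had a pooled ratio of 1.69 (0.243 to 18.7) to CTRL, or 1.09 without CTRL replicate 1, and Sympk, the nearest gene on the opposite strand at 838 bases, had 2 to 8 counts a group.

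**Figure D2:**
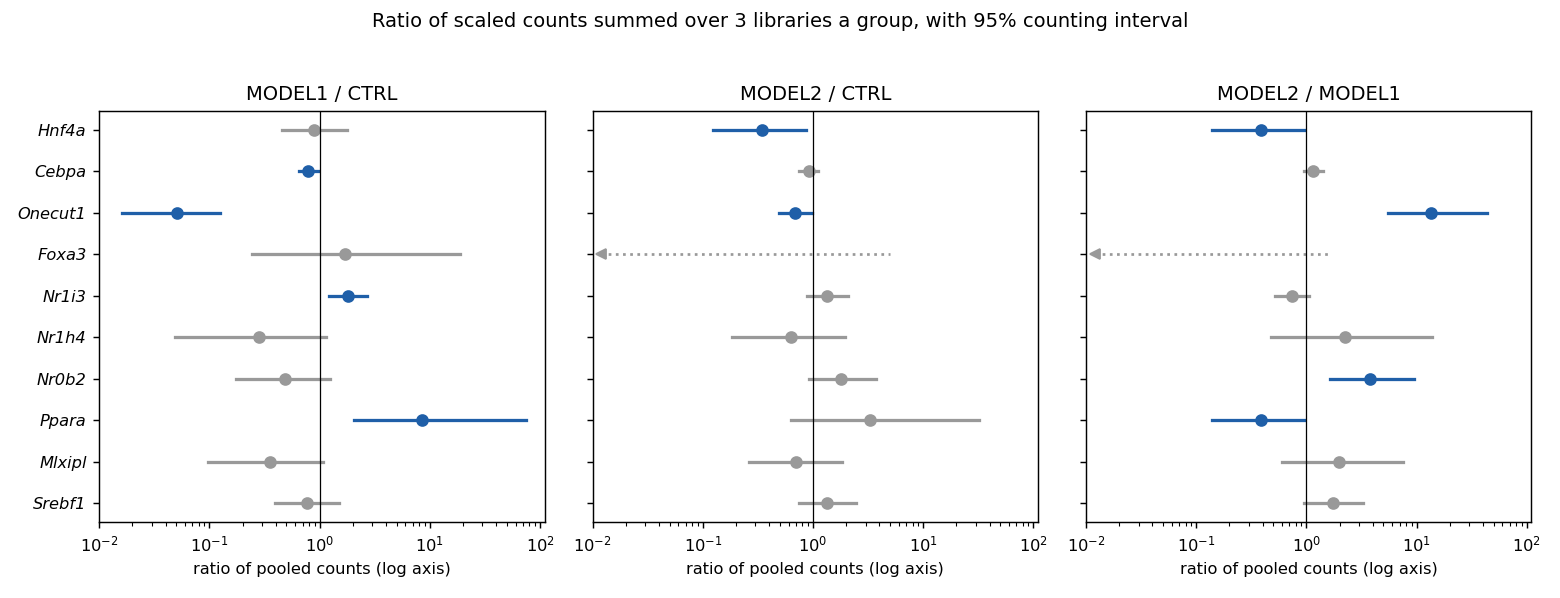
Ratio of scaled counts pooled over the 3 libraries of each group (x axis, log scale) for the 10 genes (y axis), in MODEL1 over CTRL, MODEL2 over CTRL and MODEL2 over MODEL1; lines are exact 95% intervals for counting error, blue where they leave out 1, and dotted with an arrow where the first group had 0 counts. Onecut1 stands at 0.0510 in the first panel and 13.5 in the third; most other intervals are wide or lie near 1.

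Nr1i3 encodes CAR, and its counts cannot be read apart from those of a neighbour. It lies at chromosome 1, 171213970 to 171220701, and 3304 of its 4414 exon bases (74.9%) are also exon of Tomm40l, a homologue of a mitochondrial import channel that lies on the opposite strand at 171216011 to 171222514. Nr1i3 held 27, 16 and 42 counts in MODEL1, 23, 19 and 15 in MODEL2 and 14, 11 and 15 in CTRL. Its MODEL1 libraries, at 63.3 to 123 CPM, were above its CTRL libraries, at 49.7 to 58.6 CPM, and MODEL2 libraries overlapped both. MODEL1 differed from CTRL by 0.81 ± 0.39 log2 units (SE; edgeR adjusted p = 0.152), MODEL2 from CTRL by 0.42 ± 0.41 (0.570) and MODEL2 from MODEL1 by -0.40 ± 0.38 (0.626), none of them called. The pooled ratio in MODEL1 was 1.8 (1.22 to 2.69), but 1.49 (0.947 to 2.35) without MODEL1 replicate 3 and 1.16 (0.582 to 2.25) without the Rn45s-rich libraries. The ratio of 0.743 (0.521 to 1.05) in MODEL2 against MODEL1 was 0.651 (0.450 to 0.939) without MODEL1 replicate 2.

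Tomm40l held 818, 935 and 1358 counts in MODEL1, 1186, 1102 and 1043 in MODEL2 and 3834, 2323 and 1923 in CTRL. It fell by 1.62 on the log2 scale in MODEL1 (SE 0.21; edgeR adjusted p = 5.5e-06) and by 1.36 in MODEL2 (SE 0.21; 9.6e-05), the call in MODEL2 being lost with age as a covariate (-0.48, 0.666). For each count of Nr1i3 there were 30.3 to 58.4 of Tomm40l in MODEL1, 51.6 to 69.5 in MODEL2 and 128 to 274 in CTRL. When the counts of both genes were summed, the log2 fold change of the locus was -1.59 ± 0.21 (edgeR adjusted p = 6.8e-06) in MODEL1 and -1.34 ± 0.21 (0.000108) in MODEL2. Tomm40l holds most of the summed counts, so the sum follows Tomm40l and gives no direction for Nr1i3. The strand setting of the authors' counting is not given in the sources used here, so a direction for CAR mRNA in the models was not established from these counts.

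**Figure D3:**
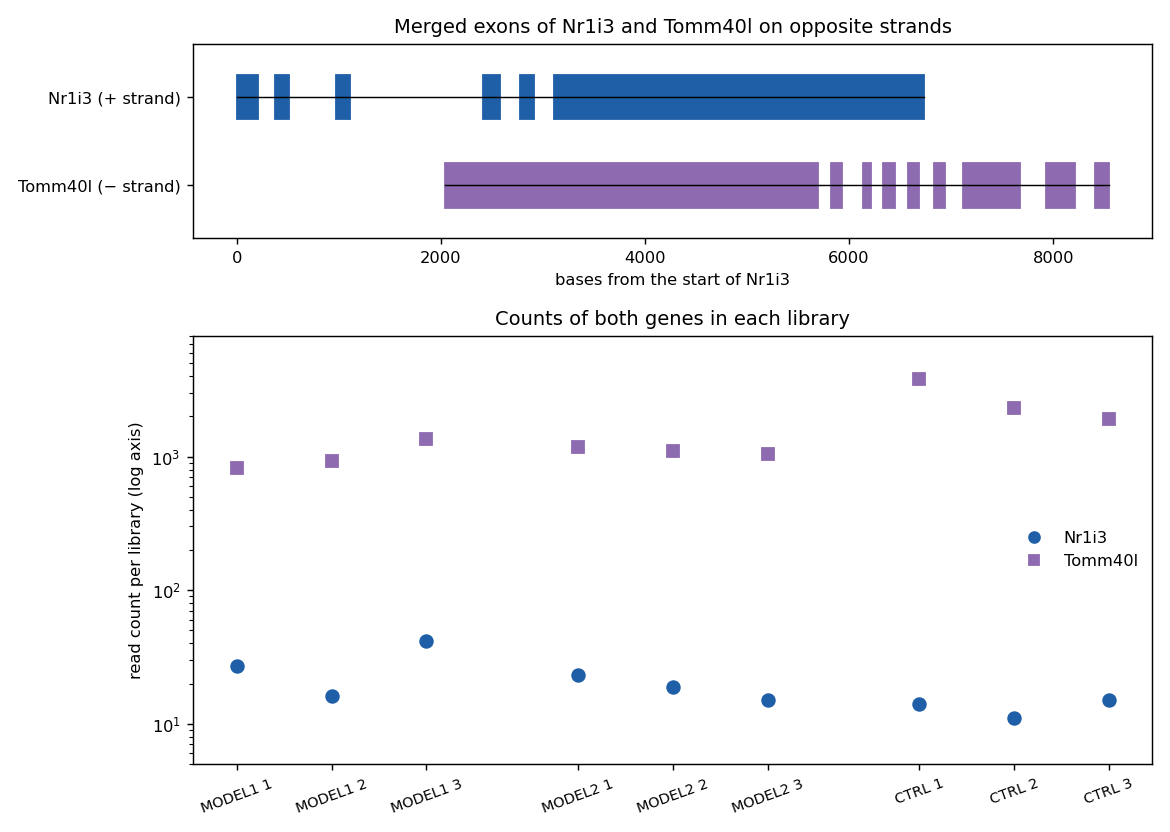
Top: merged exons of Nr1i3 and Tomm40l by distance in bases from the start of Nr1i3. Bottom: read counts of both genes in each library (y axis, log scale), with MODEL1, MODEL2 and CTRL from left to right. Tomm40l has 818 to 1358 counts in the libraries of the models and 1923 to 3834 in those of CTRL, while Nr1i3 stays between 11 and 42 counts.

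The bile acid pair of FXR and SHP was low in each group. Nr1h4, the gene of FXR (chromosome 10, 89454234 to 89533585), had 0, 3 and 0 counts in MODEL1, 0, 4 and 2 in MODEL2 and 3, 5 and 1 in CTRL. The groups overlapped, and the level was 0.282 times that of CTRL in MODEL1 (0.0492 to 1.13) and 0.625 times in MODEL2 (0.183 to 1.97). In MODEL1 it was 0.208 times (0.0356 to 0.867) without CTRL replicate 3, 0.446 times without CTRL replicate 2, 0.462 times without MODEL1 replicate 3 and 0.944 times (0.153 to 4.42) without the Rn45s-rich libraries, and without MODEL1 replicate 2 no MODEL1 count was left. In MODEL2 it was 0.304 times without MODEL2 replicate 2, 0.967 times without MODEL2 replicate 1 and 0.988 times without CTRL replicate 2, so these few counts set no direction for Nr1h4. Nr0b2, the gene of SHP (chromosome 4, 133553376 to 133556536), had 4, 2 and 2 counts in MODEL1, 8, 11 and 8 in MODEL2 and 8, 4 and 2 in CTRL. The MODEL2 libraries, at 28.6 to 44.3 CPM, stood above the MODEL1 libraries, at 5.85 to 14.1 CPM, and CTRL libraries, at 7.81 to 30.1 CPM, overlapped both. The MODEL2 to MODEL1 ratio of Nr0b2 was 3.74 (1.65 to 9.52) and stayed between 3.04 and 5.07 in each of 12 alternatives. In the edgeR fit with no filter, over 14907 genes, its log2 fold change was 1.92 ± 0.79 with an unadjusted p of 0.0153 and an adjusted p of 0.452, so it was not called. Against CTRL, MODEL1 had 0.484 times the level of Nr0b2 (0.176 to 1.24) and MODEL2 had 1.81 times (0.916 to 3.73). In MODEL1 it was 0.370 (0.131 to 0.984) without CTRL replicate 3, and in MODEL2 2.71 (1.10 to 8.03) without CTRL replicate 1.

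Ppara, the gene of the receptor that turns on fatty acid oxidation (chromosome 15, 85734983 to 85802819), was uneven within MODEL1. It had 8, 0 and 12 counts in MODEL1, 3, 2 and 2 in MODEL2 and 0, 2 and 0 in CTRL. The counts of MODEL1 were in replicates 1 and 3, which are its Rn45s-rich libraries, and replicate 2 had none, so the libraries of the groups overlapped. Pooled over libraries, MODEL1 had 8.47 times the level of CTRL (2.06 to 74.7) and MODEL2 had 3.28 times (0.625 to 32.4). MODEL2 had 0.388 times the level of MODEL1 (0.139 to 0.954). All CTRL counts of Ppara were in replicate 2, so no ratio is left without it. The MODEL1 to CTRL ratio was 5.44 without CTRL replicate 1, 5.55 without CTRL replicate 3 and 5.55 without MODEL1 replicate 3, and the MODEL2 to CTRL ratio was 2.11 without CTRL replicate 1 and 2.15 without CTRL replicate 3. Without the Rn45s-rich libraries the counts of Ppara were 0 in MODEL1, 7 in MODEL2 and 2 in CTRL. The edgeR fit with no filter gave 2.78 ± 1.16 in MODEL1 (unadjusted p = 0.0172, adjusted p = 0.248), not called. Against MODEL1, the MODEL2 interval reached 1 on leaving out any of MODEL1 replicates 1 and 3 and MODEL2 replicates 1, 2 and 3, with ratios of 0.342 to 0.592. The opposite-strand gene nearest to Ppara, Cdpf1 at 4152 bases, had 90 counts in MODEL1, 131 in MODEL2 and 507 in CTRL.

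The feeding-responsive pair showed no called change. Mlxipl, the gene of ChREBP (chromosome 5, 135089890 to 135138382), had 0, 3 and 2 counts in MODEL1, 1, 4 and 4 in MODEL2 and 6, 2 and 4 in CTRL. Its groups overlapped, and its level was 0.353 times that of CTRL in MODEL1 (0.0974 to 1.08) and 0.704 times in MODEL2 (0.262 to 1.82). In MODEL1 it was 0.297 (0.0798 to 0.955) without CTRL replicate 2 and 0.198 (0.0216 to 0.891) without MODEL1 replicate 2, but 0.944 (0.153 to 4.42) without the Rn45s-rich libraries. Mlxipl shares 235 of 5538 exon bases with Gm43500, which is not among the symbols of the table. Srebf1, the gene of SREBP1 (chromosome 11, 60199089 to 60222581), had 6, 6 and 7 counts in MODEL1, 7, 11 and 12 in MODEL2 and 7, 7 and 7 in CTRL. Its MODEL1 libraries, at 20.5 to 23.7 CPM, lay below its CTRL libraries, at 26.3 to 31.6 CPM, with a ratio of 0.766 (0.390 to 1.5). The counts themselves were 6 or 7 in MODEL1 and 7 in CTRL, so this separation rests on the scaling. In MODEL2 the ratio of Srebf1 was 1.34 (0.742 to 2.46) against CTRL and 1.75 (0.953 to 3.29) against MODEL1, and against MODEL1 it was 2.07 (1.08 to 4.02) without MODEL2 replicate 1.

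Srebf1 shares 109 of its 5634 exon bases with Rai1, a chromatin regulator on the opposite strand. Rai1 had 8, 9 and 17 counts in MODEL1, 34, 16 and 27 in MODEL2 and 14, 14 and 12 in CTRL. Its log2 fold change was 1.32 ± 0.43 in MODEL2 against MODEL1 (edgeR adjusted p = 0.0628). The summed counts of Srebf1 and Rai1 were higher by 1.16 ± 0.35 in that comparison (edgeR adjusted p = 0.0431), with each MODEL2 library above each MODEL1 library. They were not called in MODEL1 (-0.46, 0.409) or MODEL2 (0.70, 0.194) against CTRL. Rai1 holds most of the summed counts, 77 against 30 of Srebf1 in MODEL2 and 34 against 19 in MODEL1. The sum thus gives no direction for Srebf1, whose own interval in that comparison includes 1.

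Per kilobase of exon, Cebpa had the highest level of the 10 in each group, 83.9 ± 23.9 CPM per kb in MODEL1, 96.9 ± 21.04 in MODEL2 and 107 ± 2.78 in CTRL (SD, n = 3 each), and its libraries did not overlap those of the next gene. Next came Nr1i3 in MODEL1 (21.3 ± 6.76), Nr0b2 in MODEL2 (30.4 ± 7.59) and Onecut1 in CTRL (27.0 ± 9.30). The level of Nr1i3 was divided by all 4414 exon bases, of which 3304 are shared with Tomm40l, so its place in the order is uncertain. Onecut1 ranked 9 of the 10 in MODEL1 (1.53 ± 1.45), 3 in MODEL2 (18.2 ± 14.0) and 2 in CTRL. Most neighbours in the order overlapped in their libraries. In MODEL1 the ranges were apart between Cebpa and Nr1i3 and between Nr1i3 and Nr0b2, and all lower neighbours overlapped. In MODEL2 they were apart between Cebpa and Nr0b2 and between Nr1i3 and Srebf1. In CTRL they were apart between Cebpa and Onecut1, between Nr1i3 and Nr1h4 and between Srebf1 and Mlxipl. Foxa3 and Ppara were the lowest of the 10 in CTRL, at 1.28 ± 2.21 and 0.786 ± 1.36 CPM per kb.

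Genes around the members were read from lists of textbook partners and targets. These lists overlap one another in part (Cyp7a1, Cyp8b1 and Slc10a1, for example, are targets of both HNF4A and FXR). As with the members, a listed gene that passes the filter only through a group in which it is high is favoured to differ, so counts and medians over the tested genes do not stand for a whole list. Over all genes tested 22.8% were called in MODEL1 and 13.3% in MODEL2 against CTRL. Whether any list differs from those shares was not tested. Genes named by the rule had 43 calls, of which 9 were kept in each alternative, 28 were lost when age entered the fit and 25 when the Rn45s-rich libraries were left out. Of 33 other hepatocyte transcription factors 11 were tested, with 2 lower and 0 higher in MODEL1 (median log2 fold change 0.02) and 2 lower and 0 higher in MODEL2 (-0.22), while the median of all genes tested was -0.00 in MODEL1 and 0.00 in MODEL2. Prox1, a homeobox factor that restrains HNF4A targets, fell by 1.33 in MODEL1 (SE 0.45; edgeR adjusted p = 0.0361), and Cebpb, an acute-phase relative of Cebpa, fell by 1.21 in MODEL1 (SE 0.43; 0.0469) and by 1.64 in MODEL2 (SE 0.45; 0.0173). Bcl6, a repressor of PPARA targets, had 61, 62 and 106 counts in MODEL1, 17, 16 and 12 in MODEL2 and 52, 34 and 30 in CTRL. It fell by 1.45 in MODEL2 against CTRL (SE 0.34; adjusted p = 0.00530) and stood at -2.17 ± 0.33 against MODEL1 (0.000191). The call against CTRL was lost when age entered the fit (-0.56, 0.808) and without the Rn45s-rich libraries (-1.22, 0.0776), and that against MODEL1 was kept in all 19 alternatives.

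These calls rest on few libraries. That of Prox1 was lost without CTRL replicate 1 (adjusted p = 0.121), CTRL replicate 3 (0.0767), MODEL1 replicate 1 (0.129) or MODEL1 replicate 3 (0.0934). That of Cebpb in MODEL1 was lost in 13 of 19 alternatives, among them those without CTRL replicate 1 (0.265) or 2 (0.0654), MODEL1 replicate 1 (0.135) or 2 (0.144) or MODEL2 replicate 3 (0.0553), and in MODEL2 without CTRL replicate 1 (0.141) or MODEL2 replicates 2 (0.0866) or 3 (0.0591). The calls of Prox1 and Cebpb were also lost when age entered the fit (0.330 to 0.935) and without the Rn45s-rich libraries (0.185 to 0.545). Exons on the opposite strand belong to Prox1os for Prox1, Tmem189 for Cebpb and Gm37419 for Bcl6.

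Of 43 other nuclear receptors 4 were tested. Nr2c2, the orphan receptor TR4 (opposite exons of Gm44249 and Mrps25), fell by 0.80 in MODEL1 (SE 0.27; edgeR adjusted p = 0.0366), and the list gave 0 other calls in MODEL1 and 0 in MODEL2 (edgeR; medians -0.33 and 0.15). The call of Nr2c2 was lost without CTRL replicate 1 (0.0691) or 3 (0.139), MODEL1 replicate 1 (0.0996) or 2 (0.141) or MODEL2 replicate 3 (0.0536), when age entered the fit (0.0667) and without the Rn45s-rich libraries (0.0972). Of 28 partners and coregulators 10 were tested, with 1 higher and 2 lower in MODEL1 (median -0.17) and 1 higher and 1 lower in MODEL2 (-0.58). Usf2, a factor that binds the E-box and works beside ChREBP on glucose-responsive promoters, had 14, 8 and 10 counts in MODEL1, 37, 54 and 69 in MODEL2 and 167, 129 and 184 in CTRL, with no overlap between any of the groups. It fell by 4.12 in MODEL1 (SE 0.33; adjusted p = 4.1e-09) and by 1.66 in MODEL2 (SE 0.27; 0.000181), and was higher by 2.46 ± 0.33 in MODEL2 against MODEL1 (5.2e-05). Each of these was kept in all 19 alternatives run. Reads of Usf2 cannot be told apart from those of Gm17077 and Gm44662, whose exons lie on the opposite strand.

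Ncoa3, a coactivator of nuclear receptors, rose by 2.04 in MODEL1 (SE 0.68; edgeR adjusted p = 0.0328), a call lost without any 1 of the MODEL1 or CTRL libraries (0.0590 to 0.129), and fell by 2.25 in MODEL2 against MODEL1 (0.0483). That fall was lost in 14 of 19 alternatives, among them each that left out 1 library other than MODEL2 replicate 2 (0.0514 to 0.195), and the value without MODEL2 replicate 2 was -3.41. Sirt1, a deacetylase that acts on PPARA, FXR and SREBP1, fell by 1.13 in MODEL1 (SE 0.36; 0.0252), lost without CTRL replicate 1 (0.0519) or 3 (0.0727) or MODEL1 replicate 1 (0.0944) or 3 (0.0707). Carm1, a methyltransferase that coactivates nuclear receptors, rose by 0.77 in MODEL2 (SE 0.19; 0.00951), lost without CTRL replicate 1 (0.0763) or MODEL2 replicate 1 (0.0545). Each of these 4 calls was also lost when age entered the fit (0.126 to 0.669) and without the Rn45s-rich libraries (0.0813 to 0.398). Their exons face Sulf2, Gm16145 and Yipf2 on the opposite strand in that order.

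**Figure D4:**
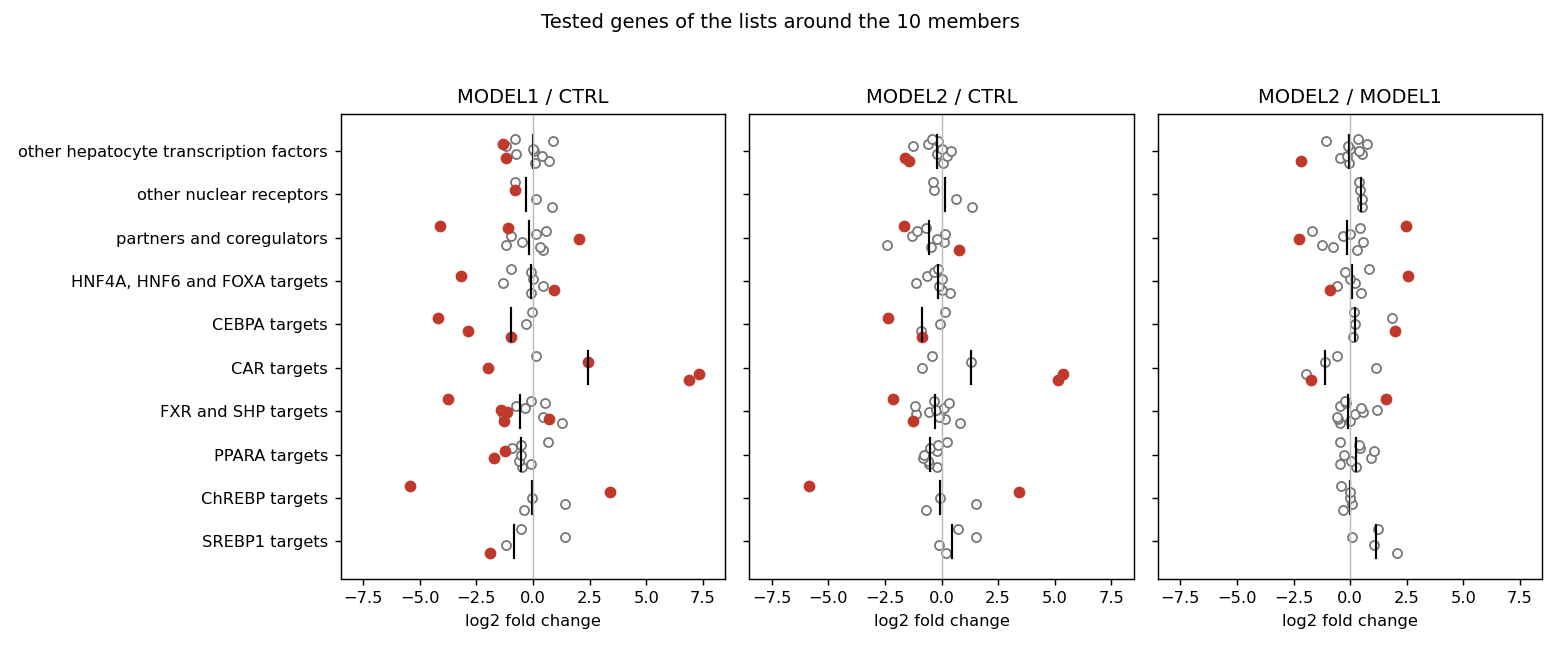
Log2 fold change (x axis) of each tested gene in the 10 lists of other regulators, partners and targets (y axis), for MODEL1 over CTRL, MODEL2 over CTRL and MODEL2 over MODEL1; filled points passed the edgeR adjusted threshold of 0.05, open points did not, and the black bar is the list's median. Over tested genes alone, the CAR list (5 of 18 genes) has a median of 2.43 in MODEL1 and 1.32 in MODEL2 and the CEBPA list (5 of 11) of -0.99 and -0.85.

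Called targets of the members went in both directions, as did calls over all genes tested. Of all genes 11.9% were higher and 11.0% lower in MODEL1, and 8.30% and 4.96% in MODEL2. Among 20 targets of HNF4A, HNF6 and FOXA 8 were tested, with 1 higher and 1 lower in MODEL1 (median -0.10) and 0 called in MODEL2 by edgeR (-0.14). Apob, the structural protein of secreted lipoproteins, had 208, 233 and 270 counts in MODEL1, 154, 102 and 98 in MODEL2 and 99, 106 and 116 in CTRL. It rose by 0.91 in MODEL1 against CTRL (SE 0.22; edgeR adjusted p = 0.00338) and fell by 0.87 in MODEL2 against MODEL1 (SE 0.22; 0.0157), the fall being lost without MODEL1 replicates 2 (0.0708) or 3 (0.0564) or MODEL2 replicates 2 (0.0769) or 3 (0.102). Serpina1b, an alpha-1 antitrypsin gene whose near-identical copies can share reads, had 0, 2 and 3 counts in MODEL1, 14, 7 and 7 in MODEL2 and 12, 16 and 12 in CTRL. It fell by 3.16 in MODEL1 (SE 0.73; 0.00262), and was higher by 2.54 in MODEL2 against MODEL1 (0.0433), a call lost on leaving out any 1 library (0.0564 to 0.221). When age entered the fit both calls of Serpina1b (0.103 and 0.0716) and the fall of Apob (0.0979) were lost, and without the Rn45s-rich libraries all 4 calls were lost (0.0933 to 0.322).

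Of 11 CEBPA targets 5 were tested, with 3 lower and 0 higher in MODEL1 and 2 lower and 0 higher in MODEL2. Pck1, the entry enzyme of gluconeogenesis, had 0, 3 and 4 counts in MODEL1, 4, 16 and 3 in MODEL2 and 47, 20 and 48 in CTRL. It was lower in MODEL1 (edgeR adjusted p = 8.2e-05) in each of 20 alternatives, and in MODEL2 (-2.35 ± 0.57, 0.00752) the call was lost without MODEL2 replicate 3 (0.050) and the value was -3.53 without MODEL2 replicate 2. Cps1, which makes carbamoyl phosphate for urea, had 0, 8 and 6 counts in MODEL1, 19, 18 and 14 in MODEL2 and 34, 18 and 39 in CTRL. It was lower in MODEL1 (0.000667) and higher by 1.97 ± 0.60 in MODEL2 against MODEL1 (0.0475), the second call being lost without MODEL1 replicates 1 (0.124) or 3 (0.120) or MODEL2 replicates 1 (0.127), 2 (0.123) or 3 (0.0773). Without MODEL1 replicate 2 these were -3.61 and 2.69, against -2.88 and 1.97 with all libraries. Alb, albumin, was lower in both models (-0.99 ± 0.24, 0.00404, in MODEL1 and -0.85 ± 0.24, 0.0199, in MODEL2), the MODEL2 call being lost without CTRL replicate 1 (0.122) or MODEL2 replicates 2 (0.0854) or 3 (0.0995). Both were lost when age entered the fit (-0.76, 0.194, in MODEL1 and -0.47, 0.765, in MODEL2) and without the Rn45s-rich libraries (-0.47, 0.437, in MODEL1 and -0.67, 0.106, in MODEL2). Age also ended the calls of Pck1 in MODEL2 (0.279) and of Cps1 between the models (0.158), and leaving out the Rn45s-rich libraries those of Cps1 in MODEL1 (0.0918) and between the models (0.440). These targets are hepatocyte products, Alb is itself one of the hepatocyte markers given above, and the sum of those markers was lower in the MODEL1 libraries, and in the MODEL2 libraries, than in any CTRL library; the part of hepatocyte content was not tested.

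Among 18 CAR targets 5 were tested, with 3 higher and 1 lower in MODEL1 and 2 higher and 0 lower in MODEL2. Over all 18 the summed level was 438 to 874 CPM in MODEL1, 221 to 383 CPM in MODEL2 and 211 to 398 CPM in CTRL, so the MODEL2 libraries overlapped those of CTRL. The genes that rose had few or no counts in CTRL and passed the filter through the models. Cyp2b9, a CYP2B enzyme close in sequence to other CYP2B genes, had 16, 30 and 18 counts in MODEL1, 6, 8 and 1 in MODEL2 and 0, 0 and 0 in CTRL. With CTRL set at 3 counts over its libraries together, Cyp2b9 would be 18.1-fold higher in MODEL1 and 4.69-fold higher in MODEL2. The exact intervals of its pooled ratios, for counting error only, started lower, at 14.3 in MODEL1 and 3.36 in MODEL2. Cyp2b9 was called higher in MODEL1 (edgeR adjusted p = 0.000153) and in MODEL2 (0.0191). The MODEL2 call was lost without CTRL replicate 1 (0.0591) or 3 (0.0501) or MODEL2 replicate 2 (0.0826). Abcc4, an efflux pump, had 51, 76 and 54 counts in MODEL1, 15, 11 and 25 in MODEL2 and 0, 0 and 1 in CTRL, and was lower in MODEL2 than in MODEL1 by 1.71 (SE 0.40; 0.0104). Without CTRL replicate 3, which holds the only CTRL count, no CTRL count was left. That last call was lost without MODEL1 replicate 2 (0.104) or MODEL2 replicates 1 (0.0646) or 2 (0.0564). Ephx1, microsomal epoxide hydrolase, had 15, 34 and 21 counts in MODEL1, 12, 10 and 8 in MODEL2 and 3, 4 and 4 in CTRL, and rose by 2.43 in MODEL1 (SE 0.57; 0.00277). When age entered the fit the calls of Cyp2b9 (0.128) and Abcc4 (0.368) in MODEL2 and of Ephx1 in MODEL1 (0.0754) were lost, and that of Cyp2b9 in MODEL2 also without the Rn45s-rich libraries (0.0860). Cyp3a11, the main CYP3A enzyme, named after its values were seen, fell by 1.99 in MODEL1 (SE 0.59; 0.0161). Abcc4 and Ephx1 are also known targets of NRF2. Nr1i3 itself was not called, and its counts cannot be read apart from those of Tomm40l. The parts of CAR and NRF2 in these changes were not tested.

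Of 20 FXR and SHP targets 12 were tested, with 1 higher and 4 lower in MODEL1 (median -0.56) and 0 higher and 2 lower in MODEL2 (-0.29). Slc27a5, which joins bile acids to coenzyme A, had 10, 7 and 7 counts in MODEL1, 19, 23 and 24 in MODEL2 and 129, 78 and 75 in CTRL, with no overlap between the groups. It was higher in MODEL2 than in MODEL1 by 1.59 ± 0.39 (edgeR adjusted p = 0.0145), a call lost without MODEL1 replicates 2 (0.0608) or 3 (0.0871) or MODEL2 replicates 2 (0.0538) or 3 (0.0591). Fgb, a fibrinogen chain, fell by 1.43 in MODEL1 (SE 0.37; 0.00648), lost without MODEL1 replicate 3 (0.0546), and had -0.27 ± 0.35 (0.683) in MODEL2. Apoa1, the main protein of HDL, fell by 1.27 in MODEL1 (SE 0.22; 0.000135) and by 1.28 in MODEL2 (SE 0.22; 0.000274). Age ended the calls of Fgb (0.0692), of Apoa1 in MODEL2 (-0.91, 0.427) and of Slc27a5 in MODEL2 (0.228), and leaving out the Rn45s-rich libraries those of Fgb (0.240), of Apoa1 in MODEL1 (0.0575) and of Slc27a5 between the models (0.172). The acute-phase C3 rose by 0.68 (0.0435) and Fga, another fibrinogen chain, fell by 1.15 (0.0143) in MODEL1; both were named after their values were seen.

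Of 38 PPARA targets 9 were tested, with 2 lower and 0 higher in MODEL1 (median -0.54) and, by edgeR, 0 called in MODEL2 (-0.52). Cidec, a lipid droplet protein, fell by 1.74 in MODEL1 (SE 0.35; edgeR adjusted p = 0.000691; -2.33 without MODEL1 replicate 2), and Fabp1, the liver fatty acid carrier, fell by 1.22 (SE 0.35; 0.0127), lost without MODEL1 replicate 1 (0.0693). Without the Rn45s-rich libraries both were lost (0.197 for Cidec and 0.282 for Fabp1), and Fabp1 also when age entered the fit (0.180). In MODEL2 Cidec had -0.80 ± 0.33 (0.122) and Fabp1 -0.18 ± 0.33 (0.778). Of 19 ChREBP targets 5 were tested, and 1 rose and 1 fell in each model. Tkt, a pentose phosphate enzyme that is also an NRF2 target, had 17, 17 and 20 counts in MODEL1, 20, 16 and 13 in MODEL2 and 0, 2 and 2 in CTRL, and rose by 3.40 in MODEL1 (SE 0.68; 0.000686) and by 3.40 in MODEL2 (SE 0.69; 0.00151), or by 2.82 in each without CTRL replicate 1. When age entered the fit the call of Tkt in MODEL2 was lost (0.274). Txnip, the thioredoxin-binding protein, had 0, 9 and 9 counts in MODEL1, 0, 2 and 10 in MODEL2 and 63, 525 and 33 in CTRL, where 1 library held most of the counts. Txnip was lower in MODEL1 (-5.43, 0.000128) and MODEL2 (-5.86, 0.000208), with -3.15 and -3.56 without CTRL replicate 2, -5.24 in MODEL2 without MODEL2 replicate 1 and -7.72 without MODEL2 replicate 3, and an exon of Gm15441 lies on its opposite strand. Both calls of Txnip were lost when age entered the fit (-2.62, 0.256, in MODEL1 and -1.59, 0.796, in MODEL2). Of 20 SREBP1 targets 4 were tested, and Fads1, a fatty acid desaturase, fell by 1.89 in MODEL1 (SE 0.65; 0.0394) but had 0.19 ± 0.56 (0.878) in MODEL2. That fall was lost without CTRL replicates 1 (0.111) or 2 (0.130), MODEL1 replicates 2 (0.0730) or 3 (0.181) or MODEL2 replicate 3 (0.0542), when age entered the fit (0.465) and without the Rn45s-rich libraries (0.389).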

How the data were processed

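The authors deposited 1 table of raw read counts per gene symbol, whole numbers with no normalization; HTSeq 0.11.2, HISAT2 2.1.0 and Trimmomatic 0.38 and the mm10 build are named in the submitters' processing notes, and the strand setting and annotation are not given in the sources used here. Symbols were placed on GENCODE M21 gene models to find exons shared across strands. Counts were tested in R 4.3.3 with edgeR 4.0.16: filterByExpr with the group factor and a minimum count of 10, TMM scaling, 1 coefficient per group over all 9 libraries, quasi-likelihood F tests, two-sided, with Benjamini-Hochberg adjustment over 2639 genes and a threshold of 0.05. A standard error is the log2 fold change divided by the square root of F. The fit was tested on simulated data. Untested genes are given as ratios of pooled, TMM-scaled counts with exact (Clopper-Pearson) 95% intervals.

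Alternatives were DESeq2 1.42.0, other scalings and filters, age, a replicate block, left-out libraries and genes free of opposite-strand exons; the sums of Nr1i3 with Tomm40l and of Srebf1 with Rai1 were added after the data had been seen. The members and lists were chosen with earlier results of these data known. For each list up to 3 called genes a comparison with the largest change were named, and called marker genes up to 2. The labels do not say more of the replicates than their numbers and ages, so p-values measure the spread between these samples. Comparisons that share a group (MODEL1, MODEL2 or CTRL) share its libraries. The values of 1 listed gene are not reported here.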

Additional observations from a re-analysis of the deposited data

Results flagged for a closer look

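Onecut1 differed between the 2 models: its log2 fold change in MODEL2 against MODEL1 was 3.60 ± 0.79 (edgeR adjusted p = 0.00717), with -4.16 in MODEL1 and -0.56 in MODEL2 against the CTRL libraries that both share. This direct test of the difference is what drew attention to it. In scaled levels all 3 MODEL2 libraries were above all 3 MODEL1 libraries. MODEL2 replicate 2 (12.1 CPM) and MODEL1 replicate 2 (11.9 CPM) each held 3 counts, so their order rests on the scaling. By raw library totals, 241205 and 219504 counts, the order is reversed. The call was lost without MODEL2 replicate 1 (edgeR adjusted p = 0.0547).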

How the results depend on the processing

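The genes called numbered 602, 350 and 192 in MODEL1 against CTRL, MODEL2 against CTRL and MODEL2 against MODEL1. In that order they were 299, 72 and 101 when age entered the fit, 299, 210 and 62 when the Rn45s-rich libraries were left out, and 251, 127 and 63 among symbols with no opposite-strand exon. With single libraries left out the counts ran from 497 to 636, from 223 (without CTRL replicate 1) to 374 and from 85 to 226. Replicate numbers were not a pairing (correlations of same-numbered deviations -0.121 to 0.0103); a replicate block gave 543, 291 and 125 genes and ended no call of a member, but 7 calls of other named genes: Prox1 (adjusted p = 0.0591), Cebpb (0.0794), Ncoa3 (0.0511) and Fads1 (0.0640) in MODEL1 against CTRL, and Ncoa3 (0.0766), Serpina1b (0.0892) and Cps1 (0.0874) in MODEL2 against MODEL1. Of the 43 calls of named genes raw library totals ended 11, no filter 9, a filter of 1 CPM 6, and DESeq2 and RLE scaling 2 each. Members called became 0 in MODEL1 against CTRL and in MODEL2 against MODEL1 without the Rn45s-rich libraries, and 0 in MODEL2 against MODEL1 with the 2 groups alone, where Onecut1 was below the filter; left-out libraries gave 0 to 1, the 0 being without MODEL2 replicate 1. Members whose pooled interval left out 1 numbered 4, 2 and 4 in the same order. Without the Rn45s-rich libraries, where MODEL1 is replicate 2 alone, they were 1, 1 and 2. With raw totals MODEL2 against CTRL had 1 such member. Leaving out single libraries gave 3 to 6 such members for MODEL1 against CTRL. For MODEL2 it gave 1 to 2 when set against CTRL, and 2 to 4 when set against MODEL1. The share of all genes passing this pooled-interval rule is not given here, so these numbers of members have no background for comparison. Uncalled values changed sign for Cebpa (0.0874 with age in MODEL2 against CTRL; -0.00623 to 0.35 with left-out libraries in MODEL2 against MODEL1), Onecut1 (0.46 with age in MODEL2 against CTRL) and Nr1i3 (0.26 without the Rn45s-rich libraries in MODEL2 against MODEL1). The sums of Nr1i3 with Tomm40l, which holds most of their counts, gave -1.59, -1.34 and 0.24. The cause of these shifts was not tested; fewer libraries or genes enter some of these fits. In these counts 7 of 10 members fell below the filter and were not tested.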
